A study of Mus musculus with 12 samples.

Results

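The genes described are the 10 secreted Wnt antagonists Wif1, Sfrp1, Sfrp2, Sfrp4, Sfrp5, Frzb, Dkk1, Dkk2, Dkk3 and Dkk4, out of 19938 genes measured in the mouse heart. They were chosen by gene name, and each was read by exactly 1 probe set annotated to that gene alone. Expression was measured on 12 Affymetrix whole-transcript arrays, 2 in each of 6 groups, from the hearts of male C57BL/6 mice. Right ventricles (RV) were taken 1, 3 or 6 weeks after a clip was closed around the pulmonary artery (PAC) at ages of 13, 15 and 18 weeks, and from sham mice at 3 weeks, aged 15 weeks. Left ventricles (LV) were taken 3 weeks after constriction of the aorta (TAC) and from sham mice at 3 weeks, both aged 15 weeks. No genetic alteration is named for any group. The hearts were perfused and cut into LV, septum and RV. The only sham RV group was of 3 weeks, and time after operation and age cannot be told apart in the PAC groups. At 1 and 6 weeks, and in the mean over the 3 times, neither of these can be told apart from the effect of the clip. Nothing in the labels states that arrays of a group came from separate animals, so the tests measure the spread between these arrays, which may be technical.

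Wnt proteins are secreted signals that bind Frizzled receptors together with the coreceptors Lrp5 and Lrp6, which stabilises beta-catenin and switches on target genes through TCF/LEF factors. Wif1 and the secreted Frizzled-related proteins (Sfrp1, Sfrp2, Sfrp4, Sfrp5 and Frzb, also called Sfrp3) bind Wnt proteins outside the cell. The Dickkopf proteins Dkk1, Dkk2 and Dkk4 instead bind Lrp5 and Lrp6, with Kremen proteins as partners, while Dkk3 is a divergent member of the family. In the adult heart, Wnt signalling is low at rest and has been tied to fibroblast activation and remodelling under load.

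Of the 10 members, 6 have an entry in the RefSeq promoter table (GRCm38.p6), which holds 250 bases before to 50 after a start site. Entries for Sfrp1, Sfrp4, Dkk3 and Dkk4 were not found. The windows of Wif1, Sfrp2 and Frzb are shown because these are the members with an entry that differed between groups and stood clearly above the background level. Capitals mark the motifs searched on both strands, which were the TCF/LEF core in the spellings CTTTGA or CTTTGT, the TATA box motif TATAAA, the GC box motif GGGCGG and the TEAD site motif CATTCC. The windows are chr10:121033754-121034053 on the plus strand for Wif1, chr3:83766071-83766370 on the plus strand for Sfrp2 and chr2:80447347-80447646 on the minus strand for Frzb.
Wif1: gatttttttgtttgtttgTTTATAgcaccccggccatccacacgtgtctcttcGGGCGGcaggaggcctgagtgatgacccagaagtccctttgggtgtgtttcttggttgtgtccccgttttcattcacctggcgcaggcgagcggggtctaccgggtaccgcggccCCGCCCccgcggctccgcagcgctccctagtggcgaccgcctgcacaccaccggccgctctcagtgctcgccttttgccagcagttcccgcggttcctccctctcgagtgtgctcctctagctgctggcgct
Sfrp2: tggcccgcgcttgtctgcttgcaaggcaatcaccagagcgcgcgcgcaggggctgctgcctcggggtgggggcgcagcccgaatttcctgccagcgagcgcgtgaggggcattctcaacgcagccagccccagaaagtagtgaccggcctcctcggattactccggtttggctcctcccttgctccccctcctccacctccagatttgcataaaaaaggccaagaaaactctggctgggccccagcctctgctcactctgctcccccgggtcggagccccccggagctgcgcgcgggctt
Frzb: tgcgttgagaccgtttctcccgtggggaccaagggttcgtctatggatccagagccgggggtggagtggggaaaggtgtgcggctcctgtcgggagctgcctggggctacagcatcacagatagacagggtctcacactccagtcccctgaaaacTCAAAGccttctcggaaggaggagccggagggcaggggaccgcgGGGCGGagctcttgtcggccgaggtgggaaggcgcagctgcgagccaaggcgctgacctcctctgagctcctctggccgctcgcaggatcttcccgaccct

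The Frzb window held CTTTGA on the opposite strand with its first base at -95 from the start site and a GC box at -51. The Wif1 window held a GC box at -197. On the opposite strand it held a GC box at -82 and TATAAA at -232. None of these letters was found in the Sfrp2 window. A TCF/LEF core of either spelling is present in 31.2% of the 32851 promoter windows in the table, GGGCGG in 35.7%, TATAAA in 13.6% and CATTCC in 14.7%. The GC content of the 3 windows was high, at 63.0% for Wif1, 66.0% for Sfrp2 and 64.7% for Frzb, against a median of 52.7% over all windows.

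Values are log2 expression values normalised by the authors, whose median over genes was 6.74, and 1 unit is a doubling. A gene passed where limma's p, adjusted by the Benjamini-Hochberg method over all 19938 genes, was at or below 0.05. With 2 arrays against 2, an exact permutation test of a single gene cannot go below p = 0.33, so all tests come from limma, which shares the estimate of spread across genes and groups. As a guide to background, the median of 1027 olfactory receptor genes lay between 3.76 and 3.93 on the 12 arrays and their 95th percentile between 5.48 and 5.78. Ventricular muscle markers were high on every array, between 13.26 and 13.37 on average over 8 genes. Nppa, the atrial natriuretic peptide gene that responds to wall stress, was higher by 2.48 ± 0.38 (SE) at 1 week, 2.49 ± 0.38 at 3 weeks and 2.47 ± 0.38 at 6 weeks of PAC (adjusted p = 0.0073, 0.018 and 0.010), while it differed by 0.33 ± 0.38 between TAC and sham LV (adjusted p = 0.985). The mean of 8 atrial muscle markers differed between the arrays of a group, at 8.70 and 9.74 in PAC 1 week, 8.04 and 9.01 in PAC 3 weeks and 7.59 and 8.72 in sham LV. Results are therefore given also without PAC 1 week array 2, PAC 3 weeks array 2 and sham LV array 2, the 3 arrays highest in those markers within their groups, a setting chosen after the data were seen.

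After PAC, members of this family moved in both directions. Taking the 3 PAC times together against sham RV, 7 of the 10 passed. Sfrp1, Sfrp2, Frzb and Dkk3 rose, where 12.2% of all genes rose, and Wif1, Sfrp5 and Dkk4 fell, where 12.6% of all genes fell. In each of these 7 genes all 6 PAC arrays lay on one side of both sham RV arrays, which held for 16.8% of all genes on the higher side and 21.8% on the lower side. The median difference was -0.13 over the 10 members and -0.05 over all genes. Every one of these comparisons rests on the same 2 sham RV arrays, so the PAC times are not independent of each other.

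**Figure D1:**
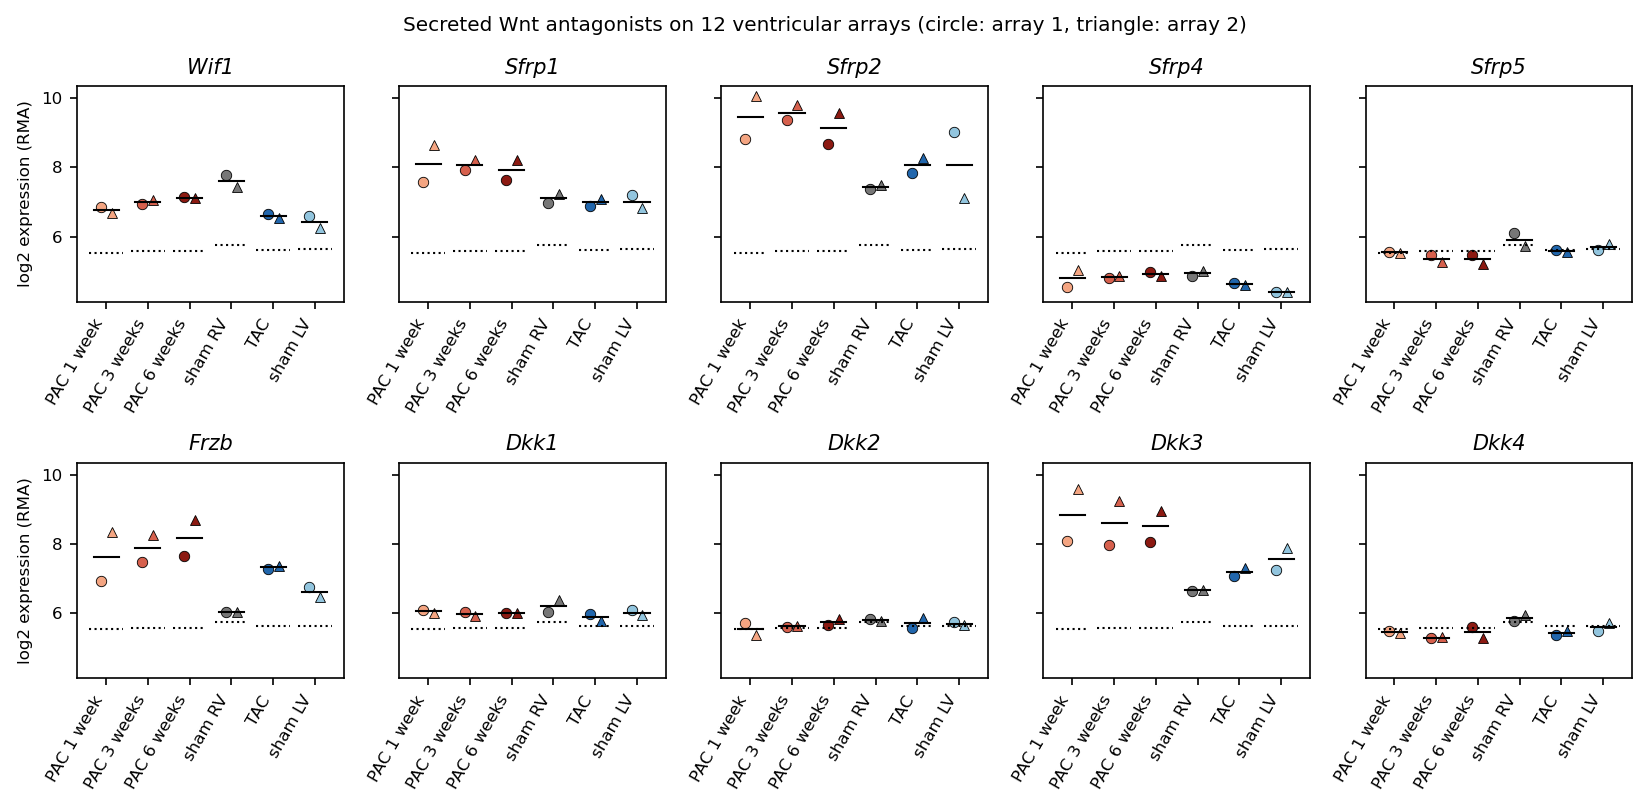
Log2 expression of the 10 antagonists on the 12 arrays by group, with array 1 as a circle, array 2 as a triangle, the group mean as a bar and the 95th percentile of olfactory receptor genes as a dotted line. Sfrp1, Sfrp2, Frzb and Dkk3 are higher on all 6 PAC arrays than on both sham RV arrays, Wif1 is highest in sham RV, and Sfrp4 lies under the dotted line in every group.

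Wif1 was highest in the sham RV and fell after PAC. Its log2 level was 6.86 and 6.68 in PAC 1 week, 6.95 and 7.06 in PAC 3 weeks and 7.13 and 7.11 in PAC 6 weeks, against 7.77 and 7.44 in sham RV. All 6 PAC arrays lay under both sham RV arrays. In the left ventricle Wif1 stood at 6.64 and 6.55 in TAC, against 6.58 and 6.25 in sham LV, and these groups overlapped. Ordered by group mean, sham RV (7.61 ± 0.24, SD, n = 2) came first, then PAC 6 weeks (7.12 ± 0.01), PAC 3 weeks (7.01 ± 0.08), PAC 1 week (6.77 ± 0.12), TAC (6.60 ± 0.06) and sham LV (6.42 ± 0.23). Only TAC and sham LV overlapped among neighbours in that order.

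Wif1 was higher by 1.19 ± 0.13 in sham RV than in sham LV, a 2.29-fold difference (adjusted p = 0.019). It was the only member to pass in that comparison, in which 0.0752% of all genes were higher and 0.336% lower in sham RV. The call was lost without sham LV array 2 (1.03, adjusted p = 0.16), without the 3 arrays highest in atrial markers (1.03, adjusted p = 0.15) and when only these 4 arrays were fitted (1.19, adjusted p = 0.064). Fewer of all genes passed in each of these 3 fits too. Whether the RV and LV pieces of sham mice came from the same hearts is not stated.

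After PAC, Wif1 fell by 0.84 ± 0.13 at 1 week (adjusted p = 0.0075), by 0.60 ± 0.13 at 3 weeks (adjusted p = 0.035) and by 0.49 ± 0.13 at 6 weeks (adjusted p = 0.049). Over the 3 times together it fell by 0.64 ± 0.11 (adjusted p = 0.0065). At 1 week 4 members rose and 2 fell, where 9.57% of all genes rose and 8.86% fell. PAC 6 weeks was 0.36 ± 0.13 above PAC 1 week, which did not pass (adjusted p = 0.42). In that comparison 0 members and 0.0953% of all genes passed, and 1 member, Wif1, had an unadjusted p under 0.05, as did 1944 genes. The difference over the 3 times was -0.48 without sham RV array 1 (adjusted p = 0.054) and passed in the other 11 fits that left out 1 array. The 1 week call ended without PAC 1 week array 2 (-0.75, adjusted p = 0.053), without the 3 arrays highest in atrial markers (-0.75, adjusted p = 0.064) and with only the arrays compared (adjusted p = 0.055). Of the 12 fits without 1 array, 6 kept the 3 weeks call and 4 the 6 weeks call, which were lost without either TAC array, either sham RV array or either array of the PAC group compared, and at 6 weeks also without either PAC 3 weeks array (adjusted p from 0.058 to 0.19 at 3 weeks and from 0.060 to 0.26 at 6 weeks). With cyclic loess scaling neither passed (adjusted p = 0.0503 and 0.069). In each fit that lost a Wif1 call here, fewer of all genes passed in that comparison too.

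Sfrp2, a Frizzled-related protein, was higher on every PAC array than on either sham RV array. In PAC 1 week it stood at 8.82 and 10.07, in PAC 3 weeks at 9.37 and 9.80 and in PAC 6 weeks at 8.69 and 9.57, against 7.38 and 7.48 in sham RV. The lowest PAC array was thus more than 1 log2 unit above the higher sham RV array. In the left ventricle it stood at 7.85 and 8.27 in TAC, against 9.01 and 7.10 in sham LV, so that the sham LV arrays spanned both TAC arrays. By group mean the order was PAC 3 weeks, PAC 1 week, PAC 6 weeks, TAC, sham LV and sham RV, and the 3 PAC groups overlapped one another.

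The rise of Sfrp2 was 4.04-fold at 1 week (2.01 ± 0.55, adjusted p = 0.034) and 4.44-fold at 3 weeks (2.15 ± 0.55, adjusted p = 0.048). At 6 weeks the difference was 1.698 ± 0.55, which did not pass (adjusted p = 0.076). Over the 3 times it rose by 1.95 ± 0.45 (adjusted p = 0.016). At 3 weeks 3 members rose and 3 fell, where 3.22% of all genes rose and 2.54% fell. Without the 3 arrays highest in atrial markers the rise over the 3 times was 1.67 (adjusted p = 0.014). It lost its call without sham RV array 1 (1.90, adjusted p = 0.089), without sham RV array 2 (2.01, adjusted p = 0.11) and with a trended and robust variance prior (1.95, adjusted p = 0.052).

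Frzb also rose, and its sham RV arrays were nearly equal. It stood at 6.93 and 8.33 in PAC 1 week, 7.47 and 8.27 in PAC 3 weeks and 7.65 and 8.69 in PAC 6 weeks, against 6.04 and 6.03 in sham RV. In each PAC group array 2 exceeded array 1, by 1.40, 0.80 and 1.04. Frzb rose 3.01-fold at 1 week (1.59 ± 0.43, adjusted p = 0.033), 3.57-fold at 3 weeks (1.84 ± 0.43, adjusted p = 0.040) and 4.38-fold at 6 weeks (2.13 ± 0.43, adjusted p = 0.020). At 6 weeks 2 members rose and 2 fell, where 5.52% of all genes rose and 3.73% fell. The 6 weeks and 1 week groups overlapped, and their difference of 0.54 ± 0.43 did not pass (adjusted p = 0.77).

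Over the 3 times Frzb rose by 1.85 ± 0.35 (adjusted p = 0.0083), and by 1.49 without the 3 arrays highest in atrial markers (adjusted p = 0.019). That call was lost without sham RV array 1 (1.86, adjusted p = 0.054) and without sham RV array 2 (1.85, adjusted p = 0.079). Frzb was also the member with the largest difference in the left ventricle, at 7.28 and 7.36 in TAC, against 6.75 and 6.47 in sham LV. Both TAC arrays were higher, as in 18.2% of all genes, but the difference of 0.71 ± 0.43 did not pass (adjusted p = 0.985).

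Sfrp1, which like Sfrp2 and Frzb carries a Frizzled-like cysteine-rich domain, rose as well. It stood at 7.57 and 8.64 in PAC 1 week, 7.91 and 8.22 in PAC 3 weeks and 7.64 and 8.20 in PAC 6 weeks, against 6.98 and 7.22 in sham RV. TAC arrays stood at 6.89 and 7.08, against 7.19 and 6.82 in sham LV, in the range of the sham RV. The rise was 2.00-fold at 1 week (1.00 ± 0.30, adjusted p = 0.043). At 3 weeks (0.97 ± 0.30, adjusted p = 0.074) and at 6 weeks (0.82 ± 0.30, adjusted p = 0.0996) the difference did not pass. Over the 3 times Sfrp1 rose by 0.93 ± 0.24 (adjusted p = 0.024), and by 0.70 without the 3 arrays highest in atrial markers (adjusted p = 0.036). Without sham RV array 1 (0.81, adjusted p = 0.14) or array 2 (1.05, adjusted p = 0.11) the call was lost.

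**Figure D2:**
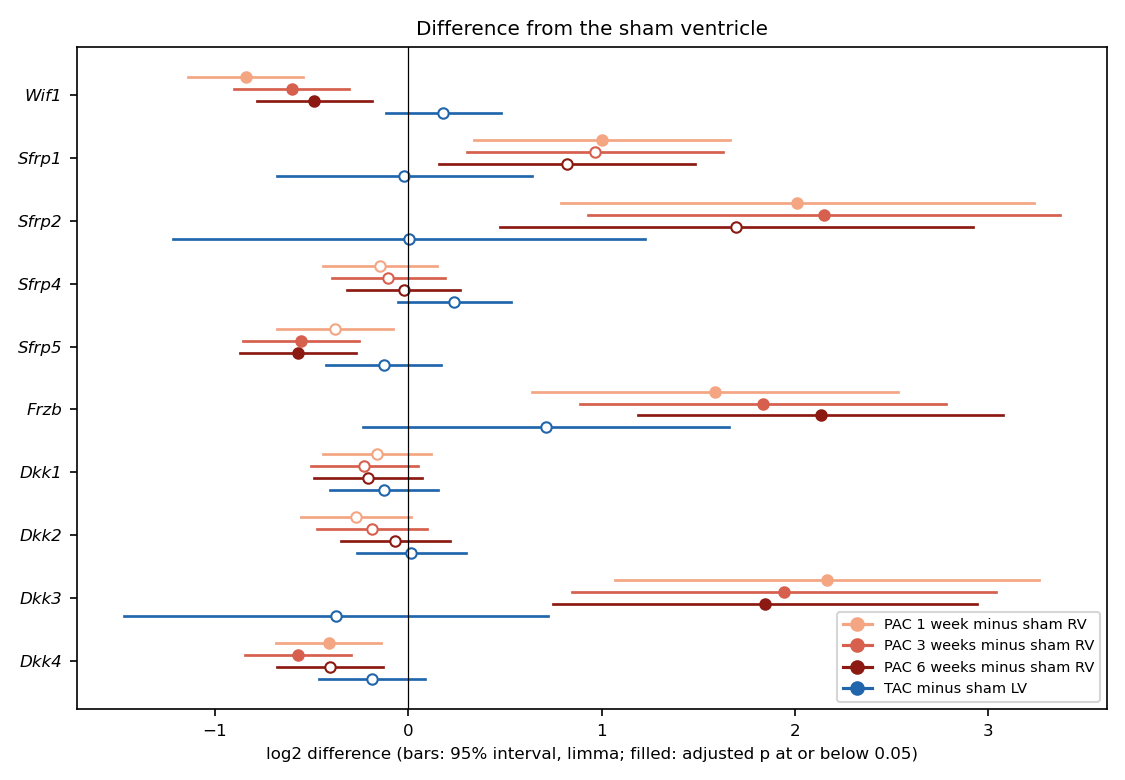
Log2 difference of each antagonist from the sham ventricle of the same side, with 95% intervals from limma, for PAC at 1, 3 and 6 weeks (red shades) and TAC (blue). Filled points passed, which no member did in the TAC comparison.

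Dkk3 rose with these genes. It stood at 8.08 and 9.58 in PAC 1 week, 7.97 and 9.23 in PAC 3 weeks and 8.05 and 8.96 in PAC 6 weeks, against 6.64 and 6.68 in sham RV. TAC arrays stood at 7.07 and 7.30, against 7.25 and 7.87 in sham LV. The rise was 4.49-fold at 1 week (2.17 ± 0.50, adjusted p = 0.020), 3.85-fold at 3 weeks (1.94 ± 0.50, adjusted p = 0.047) and 3.59-fold at 6 weeks (1.85 ± 0.50, adjusted p = 0.045). Over the 3 times it was 1.99 ± 0.40 (adjusted p = 0.011). That call was lost without sham RV array 1 (1.965, adjusted p = 0.065) and without sham RV array 2 (2.01, adjusted p = 0.087).

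Single arrays also decided the calls of the 4 rising genes at single times. In each fit named here that leaves out 1 array, fewer of all genes passed in that comparison too. The losses are thus not particular to these 4 genes. Without PAC 1 week array 2 the 1 week difference was 0.89 for Frzb (adjusted p = 0.21), 1.42 for Dkk3 (adjusted p = 0.13), 1.39 for Sfrp2 (adjusted p = 0.21) and 0.47 for Sfrp1 (adjusted p = 0.27). Without PAC 3 weeks array 2 the 3 weeks difference was 1.44 for Frzb (adjusted p = 0.25), 1.32 for Dkk3 (adjusted p = 0.30) and 1.94 for Sfrp2 (adjusted p = 0.26). Without PAC 6 weeks array 2 the 6 weeks difference was 1.61 for Frzb (adjusted p = 0.19) and 1.39 for Dkk3 (adjusted p = 0.32). Leaving out either sham RV array ended each of these calls too (adjusted p from 0.073 to 0.17). Arrays that take no part in a difference but enter the shared estimate of spread mattered as well. Leaving out either TAC array ended the calls of Sfrp2, Frzb and Dkk3 at 3 weeks, Dkk3 at 6 weeks and Sfrp1 at 1 week (adjusted p from 0.059 to 0.070), and leaving out either sham LV array all of these but that of Sfrp2 (adjusted p from 0.053 to 0.063). The call of Sfrp1 at 1 week was also lost without either PAC 3 weeks array (adjusted p = 0.051), and that of Sfrp2 at 3 weeks without PAC 3 weeks array 1 (2.37, adjusted p = 0.076). With cyclic loess scaling Frzb and Dkk3 at 1 week and Frzb at 6 weeks still passed, and the other calls of these 4 genes at single times did not. With a trended and robust variance prior only the call of Frzb at 6 weeks was kept. Without the 3 arrays highest in atrial markers 1 array each is left in PAC 1 week and PAC 3 weeks. The differences at those times are then the ones given above without array 2. No member kept a call at 1 or 3 weeks, and far fewer of all genes passed than with all arrays.

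Markers of several cell types moved with the rising genes, where 12.2% of all genes rose over the 3 times and 12.6% fell. At 1, 3 and 6 weeks 9.57%, 3.22% and 5.52% of all genes rose. Other lists moved little over the 3 times. Of 5 smooth muscle markers 1 rose, of 8 ventricular muscle markers 1 fell, of 4 adipocyte markers 1 fell, and 0 of 2 Schwann cell markers passed. The mean of 8 activated fibroblast markers was 7.85 and 9.66 in PAC 1 week, 8.89 and 9.09 in PAC 3 weeks and 8.91 and 10.04 in PAC 6 weeks, against 7.01 and 7.11 in sham RV, and 7 of the 8 rose over the 3 times (5 without the 3 arrays highest in atrial markers). Of 10 general fibroblast markers 7 rose over the 3 times and 0 fell (5 and 0 without those 3 arrays). Of 8 atrial muscle markers 6 rose at 1 week, 2 at 3 weeks and 1, Nppa, at 6 weeks, and their mean in PAC 6 weeks was 7.90 and 8.20, against 7.18 and 6.71 in sham RV. Of these 8, 5 rose over the 3 times, and 6 without the 3 arrays. Of 5 endothelial markers 4 rose over the 3 times and 3 at 3 weeks, by a median of 0.27 over the 3 times (1 of 5 without the 3 arrays). Of 6 macrophage markers 5 rose at 1 week and 2 over the 3 times. The mean of the macrophage markers was 8.99 and 9.60 in PAC 1 week, against 8.65 and 8.61 in sham RV. Of 8 markers of heart valve or cartilage 3 rose and 1 fell over the 3 times, and of 8 epicardial or mesothelial markers 0 did either, although 2 rose at 1 week and 1 fell at 6 weeks. Without sham RV array 1, and likewise without array 2, fewer fibroblast, activated fibroblast, atrial, endothelial and macrophage markers rose over the 3 times. Fewer of all genes passed there too. The median difference of the activated fibroblast markers was 1.79, and 1.65 and 1.92 in those fits. For the general fibroblast markers it was 0.91, 1.02 and 0.85, and for the atrial markers 2.01, 2.0 and 1.53. In whole ventricle, more cells of a type and more RNA per cell cannot be told apart, and the part of any of these marker lists in the rise was not tested.

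Single atrial markers differed in their course. Bmp10, a gene of atrial muscle, stood at 8.55 and 10.50 in PAC 1 week and 4.52 and 8.79 in PAC 3 weeks, but at 4.79 and 4.52 in PAC 6 weeks, against 4.28 and 4.64 in sham RV. At 6 weeks Bmp10 differed by 0.20 ± 1.03 (adjusted p = 0.91), whereas Myl4 stood at 9.48 and 10.20 in PAC 6 weeks, against 8.35 and 7.16 in sham RV. Myl4 and Myl7, the atrial myosin light chain genes, differed by 2.08 ± 0.66 (adjusted p = 0.070) and 2.14 ± 0.80 (adjusted p = 0.11) at 6 weeks, and Nppa passed there. The median of the 8 atrial markers was 1.02 at 6 weeks. In sham LV, array 2 had the higher atrial marker mean (7.59 on array 1 and 8.72 on array 2) and the higher Dkk3 (7.25 and 7.87), whereas Sfrp2 (9.01 and 7.10), Sfrp1 (7.19 and 6.82) and Frzb (6.75 and 6.47) were higher on array 1. The general fibroblast marker mean was higher on sham LV array 1 as well, at 10.13, with 9.72 on array 2. So were the means of activated fibroblast (7.54 and 7.20), macrophage (8.87 and 8.66) and smooth muscle markers (8.3 and 8.15). The same held for valve or cartilage (6.44 and 6.38) and ventricular muscle markers (13.36 and 13.34). Array 2 was higher in endothelial (10.19 and 10.26), epicardial or mesothelial (6.64 and 6.71), adipocyte (5.0 and 5.06) and Schwann cell markers (6.06 and 6.07). What these differences stem from was not tested.

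**Figure D3:**
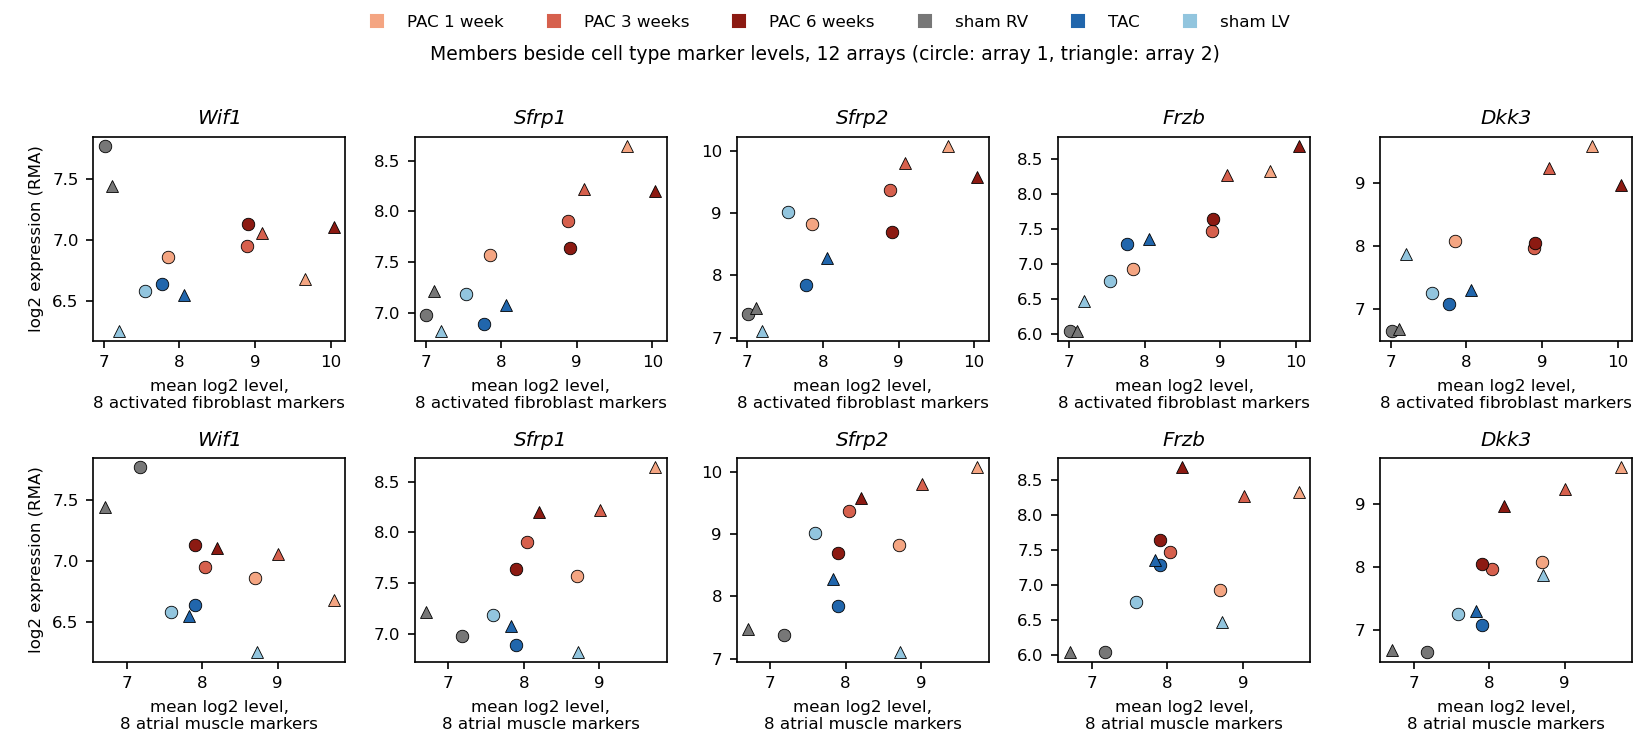
Log2 expression of 5 antagonists (vertical axes) on the 12 arrays against the mean log2 level of 8 activated fibroblast markers (upper row) and 8 atrial muscle markers (lower row), coloured by group. In each PAC group array 2 (triangle) is higher than array 1 in both marker means and in Sfrp1, Sfrp2, Frzb and Dkk3. Sham LV array 2 (light blue triangle) is higher than array 1 in atrial markers and Dkk3, but lower in Sfrp1, Sfrp2 and Frzb.

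The remaining 5 members were near background. Sfrp4 lay under the 95th percentile of olfactory receptor genes in 6 of 6 groups, Dkk4 above it in 1 group and Sfrp5 in 3, while Dkk1 and Dkk2 lay above it in all 6. Sfrp4 ranged from 4.39 to 5.03 over the 12 arrays, Dkk1 from 5.78 to 6.39 and Dkk2 from 5.36 to 5.85. These 3 genes passed in no comparison. Sfrp4 stood at 4.87 and 5.01 in sham RV, against 4.39 and 4.39 in sham LV, and the difference of 0.55 ± 0.13 did not pass (adjusted p = 0.074).

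Sfrp5 stood at 5.56 and 5.52 in PAC 1 week, 5.46 and 5.25 in PAC 3 weeks and 5.47 and 5.21 in PAC 6 weeks, against 6.09 and 5.73 in sham RV. It fell by 0.56 ± 0.14 at 3 weeks (adjusted p = 0.044), by 0.57 ± 0.14 at 6 weeks (adjusted p = 0.032) and by 0.50 ± 0.11 over the 3 times (adjusted p = 0.014). Dkk4 stood at 5.48 and 5.41 in PAC 1 week, 5.27 and 5.30 in PAC 3 weeks and 5.61 and 5.29 in PAC 6 weeks, against 5.76 and 5.95 in sham RV. It fell by 0.41 ± 0.12 at 1 week (adjusted p = 0.044), by 0.57 ± 0.12 at 3 weeks (adjusted p = 0.033) and by 0.46 ± 0.10 over the 3 times (adjusted p = 0.013).

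Low values as a class were shifted the same way. Over the 3 times the olfactory receptor genes differed by a median of -0.12 from sham RV. Of the 1027, 105 passed as lower and 5 as higher, where 12.6% of all genes passed as lower and 12.2% as higher. The share of olfactory receptor genes that passed as lower was thus not above that of all genes, while few passed as higher. The 3404 genes with a mean level from 5 to 6, the range of Sfrp5 and Dkk4, differed by a median of -0.19. Of them 22.4% passed as lower and 2.09% as higher. The 12470 genes above 6 differed by a median of 0.04, but the 3338 between 6 and 7 by -0.10. Wif1 has its mean level, 6.92, in that last range, where 18.4% of genes passed as lower. With cyclic loess scaling Sfrp5 differed by -0.32 over the 3 times (adjusted p = 0.052) and Dkk4 by -0.28 (adjusted p = 0.048), and neither passed at a single time. The part of the shift at low levels in these falls, or in that of Wif1, was not tested. The Sfrp5 call over the 3 times also ended without sham RV array 1 (-0.32, adjusted p = 0.12) and without the 3 arrays highest in atrial markers (-0.46, adjusted p = 0.051), and the Dkk4 call without sham RV array 2 (-0.37, adjusted p = 0.13). At single times, 4 to 7 of the 12 fits without 1 array kept a call of these 2 genes. In the fits that lost one, fewer of all genes passed in that comparison too. The exception was 1 week without PAC 1 week array 1, where more of all genes passed. The calls were lost without either TAC array, either sham RV array or array 2 of the PAC group compared in every case (adjusted p from 0.051 to 0.26). Array 1 of the PAC group compared also ended the calls of Dkk4 at 1 and 3 weeks and of Sfrp5 at 3 weeks, either PAC 3 weeks array that of Dkk4 at 1 week and either sham LV array that of Sfrp5 at 3 weeks (adjusted p from 0.054 to 0.071).

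In the left ventricle 0 members passed between TAC and sham LV in limma, and 0% of all genes did. At an unadjusted p under 0.05 there were 0 members and 963 genes. The difference was 0.18 ± 0.13 for Wif1, -0.02 ± 0.30 for Sfrp1, 0.00 ± 0.55 for Sfrp2 and -0.37 ± 0.50 for Dkk3. The 95% interval for Sfrp2 ran from -1.22 to 1.22, so a difference of more than 1 log2 unit in either direction was within it. The interval for Dkk3 ran from -1.47 to 0.72 and for Frzb from -0.23 to 1.66.

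At 3 weeks the clipped right ventricle was also set directly against the constricted left ventricle. Sfrp1 was higher by 1.09 ± 0.30 in PAC than in TAC, Sfrp2 by 1.53 ± 0.55, Dkk3 by 1.42 ± 0.50 and Wif1 by 0.41 ± 0.13, and for each of them both PAC arrays lay above both TAC arrays, as in 19.9% of all genes. None of these passed in limma (adjusted p from 0.54 to 0.61), and these 4 members had an unadjusted p under 0.05. Of all genes 0.0201% passed and 1470 had an unadjusted p under 0.05.

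Whether PAC and TAC changed the members unequally was tested as the PAC change minus the TAC change at 3 weeks. That difference was 2.32 ± 0.70 for Dkk3 (adjusted p = 0.36), 2.15 ± 0.78 for Sfrp2 (adjusted p = 0.38), 0.99 ± 0.42 for Sfrp1 (adjusted p = 0.41), -0.78 ± 0.19 for Wif1 (adjusted p = 0.35) and -0.43 ± 0.19 for Sfrp5 (adjusted p = 0.41). These 5 members had an unadjusted p under 0.05, as did 2381 genes, and 0 members and 0% of all genes passed in limma. A response of the members confined to the right ventricle was thus not shown.

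Other genes of the Wnt pathway, which were tested in the same fit, also moved in both directions. Of 91 other pathway genes measured, 9 rose and 21 fell over the 3 PAC times, with a median difference of -0.15. With cyclic loess scaling 7 rose and 10 fell with a median of -0.04, and without the 3 arrays highest in atrial markers 4 rose and 7 fell. Without sham RV array 1 the counts were 3 and 2, and without sham RV array 2 they were 1 and 1. Among all genes 24.8% passed in that comparison, 12.2% higher and 12.6% lower, and 15.3% passed with cyclic loess scaling, 10.6% without the 3 arrays, 7.62% without sham RV array 1 and 1.48% without array 2. The share of pathway genes that rose was thus not above that of all genes. Most of the calls named below by list were lost without sham RV array 1, and likewise without array 2. Most calls among all genes were lost there too. By mean level, 6 of the 21 that fell stood under 6, 8 between 6 and 7 and 7 above 7. All genes between 6 and 7 differed by a median of -0.10, with 18.4% lower and 8.45% higher, and those above 7 by a median of 0.08, with 7.23% lower and 22.4% higher. The part of the shift with level in these falls was not tested.

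**Figure D4:**
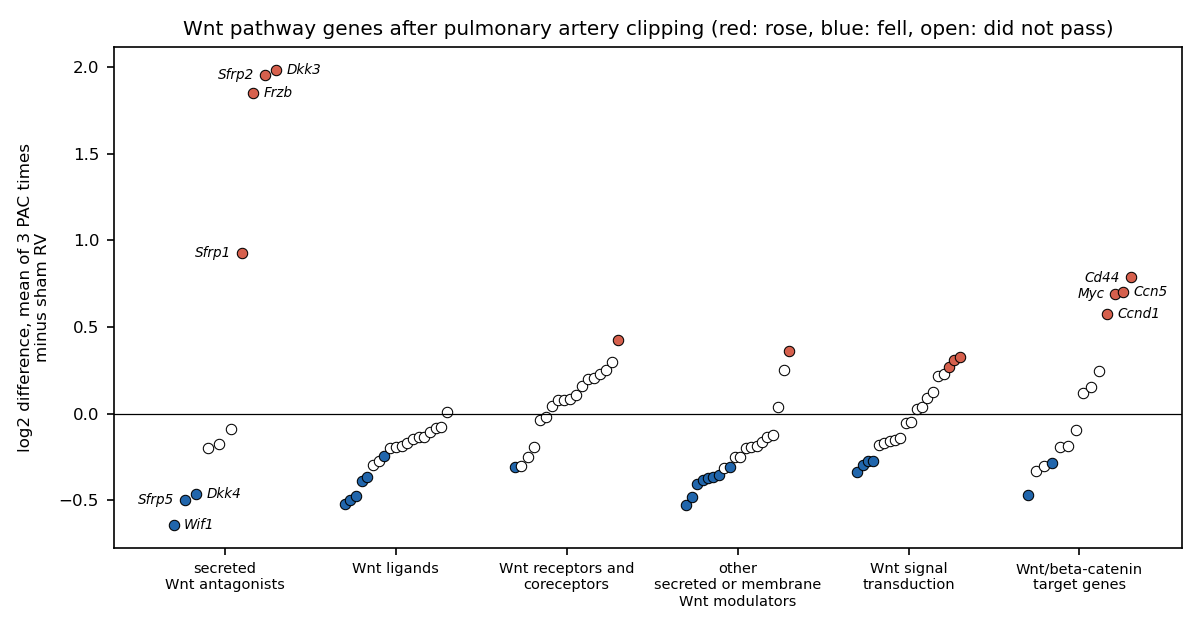
Log2 difference over the 3 PAC times from sham RV for the 10 antagonists and 91 other Wnt pathway genes by role (red rose, blue fell, open did not pass). Dkk3, Sfrp2 and Frzb lie near 2, while Cd44, the highest point among the other pathway genes, lies at 0.79.

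Among the 19 Wnt ligands, whose mean levels ran from 4.68 to 7.51, 6 fell and 0 rose over the 3 times. Their median difference was -0.19, and it was -0.13 without sham RV array 1 and -0.22 without array 2. Wnt10a fell by 0.53 ± 0.15, Wnt3a by 0.50 ± 0.11, Wnt4 by 0.48 ± 0.09 and Wnt6 by 0.39 ± 0.12. Wnt4 passed at 1 week (-0.51 ± 0.10, adjusted p = 0.016), 3 weeks (-0.52 ± 0.10, adjusted p = 0.031) and 6 weeks (-0.41 ± 0.10, adjusted p = 0.038), and it differed by -0.52 over the 3 times with cyclic loess scaling (adjusted p = 0.0085). With that scaling 2 of the 19 ligands fell, Wnt3a and Wnt4, and the same 2 passed without the 3 arrays highest in atrial markers, where the Wnt4 difference did not pass at 1 week (adjusted p = 0.11) or 3 weeks (adjusted p = 0.15).

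Of the 18 receptors and coreceptors, Fzd1 rose by 0.42 ± 0.12 (adjusted p = 0.034) and Fzd9 fell by 0.31 ± 0.09 (adjusted p = 0.038), both Frizzled receptors. Neither passed with cyclic loess scaling (adjusted p = 0.075 for Fzd1 and 0.12 for Fzd9) or without the 3 arrays highest in atrial markers (adjusted p = 0.074 and 0.053), and 0 of the 18 passed in either setting. Of 20 other modulators 8 fell and 1 rose. Lgr4, a receptor for R-spondins, rose by 0.36 ± 0.08 (adjusted p = 0.014), a call lost without those 3 arrays (adjusted p = 0.057). All 4 R-spondins, which strengthen Wnt signals, fell, Rspo4 by 0.53 ± 0.14, Rspo1 by 0.48 ± 0.11, Rspo2 by 0.39 ± 0.09 and Rspo3 by 0.37 ± 0.09. The mean levels of Rspo4 (5.42), Rspo2 (5.03) and Rspo3 (4.95) lay under the 95th percentile of the olfactory receptor genes, and that of Rspo1 was 6.26. With cyclic loess scaling these 3 lost the call (adjusted p = 0.076 for Rspo4, 0.10 for Rspo2 and 0.13 for Rspo3), and without the 3 arrays highest in atrial markers Rspo1 did (adjusted p = 0.056).

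Of 20 genes of signal transduction 3 rose and 4 fell. Ctnnb1, which encodes beta-catenin, rose by 0.33 ± 0.07 (adjusted p = 0.011) and Csnk1a1, a kinase that marks beta-catenin for breakdown, by 0.31 ± 0.08 (adjusted p = 0.022). Ctnnbip1, an inhibitor of beta-catenin, rose by 0.27 ± 0.08. Pygo1 and Bcl9l, which act with beta-catenin in the nucleus, fell by 0.34 ± 0.10 and 0.29 ± 0.06. The kinase gene Gsk3a fell by 0.28 ± 0.07 and the TCF factor gene Tcf7l2 by 0.27 ± 0.07. Of these 7, Ctnnbip1 lost its call with cyclic loess scaling (adjusted p = 0.092), and without the 3 arrays highest in atrial markers the calls of Ctnnb1 and Bcl9l were kept. Of 14 target genes 4 rose and 2 fell, with a median of 0.01, where 12.2% of all genes rose and 12.6% fell. Of the targets that did not pass, Axin2 (-0.33), Nkd1 (-0.30), Lef1 (-0.19), Fosl1 (-0.18) and Tnfrsf19 (-0.09) were lower. Ccn4 (0.25), Twist1 (0.16) and Nkd2 (0.12) were higher, with adjusted p from 0.063 to 0.51 in limma for all of these. Cd44 rose by 0.79 ± 0.19 (adjusted p = 0.018), Ccn5 by 0.70 ± 0.19 (adjusted p = 0.024), Myc by 0.69 ± 0.17 (adjusted p = 0.021) and the cyclin D1 gene Ccnd1 by 0.58 ± 0.08 (adjusted p = 0.0046), while Sp5 fell by 0.29 ± 0.08 (adjusted p = 0.028). The other that fell was Fgf20 (-0.47 ± 0.11, adjusted p = 0.019), named after its value was seen. The mean levels of Sp5 (5.4) and Fgf20 (5.52) were near background, in the range from 5 to 6 where 22.4% of genes passed as lower. The 4 rises passed with cyclic loess scaling and neither fall did, at -0.10 for Sp5 (adjusted p = 0.41) and -0.29 for Fgf20 (adjusted p = 0.056). Without the 3 arrays highest in atrial markers Fgf20 (adjusted p = 0.051) and Ccn5 (adjusted p = 0.081) lost the call. Cd44, Myc and Ccnd1 are also controlled by other pathways. In the 5 comparisons that did not set PAC against sham RV, 0 of the 91 passed.

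For each member that passed, the genes whose levels over the 12 arrays were most like it by Pearson's r were taken. Predicted gene models, unnamed clones, olfactory and vomeronasal receptors, small RNA genes and all symbols that begin with Rn were left out first. These values describe 12 arrays that share 6 groups. Sfrp1 was most like Sulf2 (0.991), Iqgap1 (0.984) and Cers6 (0.977), and Sfrp2 most like Col14a1 (0.969), Igsf10 (0.962) and Rbms3 (0.952). Frzb was most like Bgn (0.982), Skil (0.977) and Ccn2 (0.977), and Dkk3 most like Gnb1 (0.972), Ugdh (0.966) and Ap2b1 (0.960). Bgn encodes the matrix proteoglycan biglycan, Col14a1 a collagen and Ccn2 connective tissue growth factor. Among the genes kept, Wif1 had no match as close, with Srcap (0.887), Mpg (0.886) and Faxc (0.885). The near-background members were most like Dlx2 (0.930), Fabp12 (0.927) and Chst10 (0.923) for Sfrp5, and Fbxo41 (0.977), Slc13a3 (0.955) and Il12a (0.95) for Dkk4.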

How the data were processed

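Per the labels' protocols, total RNA of dissected ventricles was labelled with the WT Terminal Labeling Kit. The deposited log2 expression values of 35556 probe sets on 12 arrays were made by the authors with RMA in Affymetrix Power Tools, per the submitters' processing notes. The labels and file headers give no software version or genome build. RMA rescales arrays to a common distribution, so array medians lay between 6.32 and 6.4, and it compresses differences at low levels. Probe sets were named from the platform annotation (21789 with 1 gene, 1621 with several, 12146 not listed there). For the 999 genes with several probe sets the one with the highest mean was kept, giving 19938 genes.

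Means of 6 groups were fitted with limma 3.58.1 in R 4.3.3 (6 residual and 4.6 prior degrees of freedom), 9 comparisons were drawn and p-values were adjusted within each by Benjamini-Hochberg over all genes. The members, pathway lists and markers were chosen with earlier results of these data known. All 10 members are reported. From each pathway list and comparison up to 4 genes that passed with the largest change were eligible for naming, or up to 2 with the smallest p, and 3 most similar genes per member that passed. Beside this rule, Myh6 and Nppa were checks, and Bmp10, Myl4 and Myl7 were named after their values were seen. So were Fgf20 and the target genes that did not pass. Myh6 differed by -0.07 ± 0.07 at 1 week (adjusted p = 0.51). The number of arrays limits the precision. Alternatives were cyclic loess scaling, the mean over probe sets, a filter on low levels, a trended and robust prior, only the arrays compared, a replicate block, leaving out each array and the 3 arrays highest in atrial markers.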

Additional observations from a re-analysis of the deposited data

How the results depend on the processing

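The main counts of members that passed were 6 at 1 week, 6 at 3 weeks, 4 at 6 weeks, 7 over the 3 times and 1 between sham RV and sham LV. With cyclic loess scaling they were 3, 0 and 1 at 1, 3 and 6 weeks (all genes 10.9%, 2.68% and 6.41%, with the main settings 18.4%, 5.76% and 9.25%), with a trended and robust prior 2 and 3 at 1 and 3 weeks (all genes 19.1% and 8.27%), and with only the arrays compared 0 at 1 week and 0 between sham RV and sham LV (all genes 0.446% and 0.0301%). Without the 3 arrays highest in atrial markers, a setting added after the data were seen, they were 0 at 1 week, 0 at 3 weeks and 0 between sham RV and sham LV (all genes 0.883%, 0.0201% and 0.01%). Leaving out 1 array at a time gave 0 to 6 at 1 week, 0 to 7 at 3 weeks, 0 to 5 at 6 weeks, 1 to 7 over the 3 times and 0 to 2 between sham RV and sham LV. Without sham RV array 1 the count over the 3 times was 1, and without array 2 it was 2 (all genes 7.62% and 1.48%, with all arrays 24.8%). The share of all genes that passed also varied widely between the fits that left out 1 array. The ranges are thus not particular to the members. Same-numbered arrays deviated together among the 3 PAC groups (correlations of 0.263, 0.370 and 0.261) but not between PAC and sham RV (0.02, -0.094 and -0.07), and the range over the 15 pairs of groups was -0.24 to 0.37. The labels give no meaning to the numbers, so they were not taken to pair PAC with sham arrays. With a replicate block 5, 5, 4 and 7 members passed at 1, 3 and 6 weeks and over the 3 times (all genes 18.9%, 6.96%, 9.74% and 25.3%). Dkk4 at 1 week (adjusted p = 0.051) and Sfrp2 at 3 weeks (adjusted p = 0.052) were no longer among them. Taking the mean over probe sets changed no count, and the filter left out Sfrp4, Sfrp5, Dkk1, Dkk2 and Dkk4. No member that passed changed direction under any of these alternatives. The causes were not tested, apart from the smaller number of arrays that some alternatives leave by construction.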
